A study of Homo sapiens with 6 samples.

Results

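The genes of the Mediator complex were examined as a set of 33 listed genes (MED1 to MED31 as far as human genes carry these names, the paralogs MED12L and MED13L, and the kinase module genes CCNC, CDK8 and CDK19), taken by symbol from the 61552 genes in the tables. All 33 matched exactly 1 gene identifier, and all 33 passed the low-count filter that left 15063 genes for testing. The RNA came from NCI-H520, an established human line of lung squamous cell carcinoma, labelled wild type (WT) and kept in RPMI-1640 with 15% serum. For 48 h the cells received either phosphate-buffered saline (PBS) or 2 µM cisplatin, a platinum compound whose adducts link DNA bases, and each group held 3 libraries. All values belong to this single line. The labels do not say whether the replicates were grown apart, and the p-values therefore reflect only differences among these libraries, which may be technical.

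Mediator is a large protein complex that carries signals from DNA-bound transcription factors to RNA polymerase II at promoters. Its core has a head and a middle that contact the polymerase, a tail that binds many activators, and the scaffold subunit MED14 that joins them. A separable kinase module, made of CDK8 or CDK19, cyclin C (CCNC), MED12 or MED12L, and MED13 or MED13L, docks on the core and hinders polymerase binding while it phosphorylates transcription factors. MED27, MED28, MED29 and MED30 lie where head and tail meet and are placed in either one by different descriptions, so they were kept as a group of their own.

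Total counts ran from 9121180 to 16724285 per library, of which the 33 genes together took 14346 to 25636. Mitochondrial genes took 4.76%, 6.05% and 4.15% of the counts under PBS and 3.26%, 3.56% and 4.13% under cisplatin, a split without overlap whose part in the results was not tested. The replicates of each group differed by more than sampling noise (chi-square per degree of freedom 2.98 to 21.2), so no library was counted as a copy of another. Of 5 squamous markers, SOX2 was well expressed (309 ± 24.2 CPM under PBS, SD, n = 3, CPM being counts scaled by library size), KRT5 stood at 5.42 ± 0.811 CPM, DSG3 was at 0 counts in all 6 libraries, and TP63 and KRT14 had at most 5 counts in any library. The 11 markers of leukocytes, endothelium and fibroblasts had at most 9 counts in any library, with PTPRC, CD3E and COL3A1 at 0 throughout.

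The libraries are bulk RNA, in which fewer cells of a kind and less RNA per cell cannot be told apart. After cisplatin 4 of the 7 kinase module genes and 2 genes of the core were lower, and 6 genes of the core were higher. MED13L, MED12L and MED13 fell by 0.79, 0.80 and 0.62 on the log2 scale, and the kinase CDK8 fell by 0.24. MED1 and MED14 of the core fell by 0.36 each. MED31 and MED7 of the middle rose 1.86-fold and 1.45-fold, and MED9, MED15, MED20 and MED29 rose by smaller amounts. In all, 6 of the 33 genes rose and 6 fell at an adjusted p under 0.05 (quasi-likelihood test of edgeR, Benjamini-Hochberg over all tested genes, n = 3 per group), and 21 were not called. Those 12 calls are 36.4% of the members. Over all tested genes the share called was 38.2%, with 18.9% higher and 19.3% lower, so the members taken as one list stood near the background. The median log2 fold change of the 33 was 0.08, against a median of -0.00 (-0.0003473) for all tested genes.

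**Figure D1:**
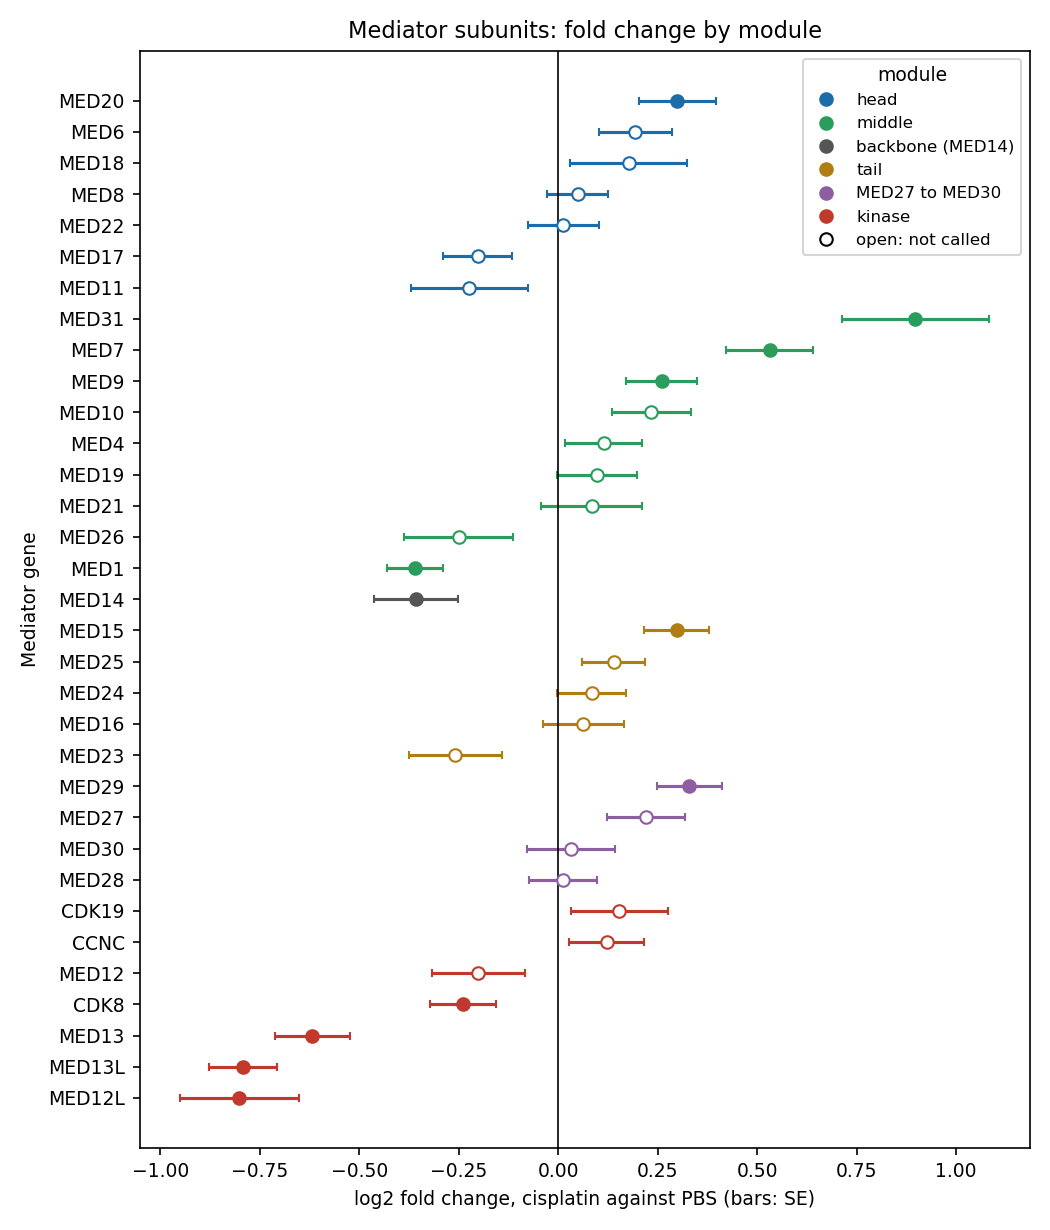
Log2 fold change of each of the 33 Mediator genes (cisplatin against PBS, 3 libraries each; x axis) by module, with bars of 1 standard error; filled points passed the adjusted p of 0.05 and open points did not. The filled points of the kinase module lie to the left, from -0.24 to -0.80, and those furthest to the right are MED31 and MED7 of the middle.

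Promoters are shown for the kinase module genes that fell and have an entry in RefSeq (GRCh38.p14, with an entry for 25 of the 33 members). That of MED31, the gene with the largest increase, is added. Each is the longest stretch outside annotated exons within the 250 bases before the start site. The stretches are 250 bases for MED12L, 224 for MED13L, 225 for CDK8 and 83 for MED31. For MED13L, CDK8 and MED31 they end 26, 25 and 29 bases before the start site. They are written 5′ to 3′ along the gene's strand. Capitals mark a match on either strand to 1 of 7 short motifs searched: the GC box GGGCGG, the CCAAT box CCAAT, the ETS site CCGGAAG, the TATA box TATAAA, an E2F-type site TTCCCGC, the YY1 site AAGATGGC and the SOX core CATTGT.
MED12L, chr3:151085414-151085663, plus strand: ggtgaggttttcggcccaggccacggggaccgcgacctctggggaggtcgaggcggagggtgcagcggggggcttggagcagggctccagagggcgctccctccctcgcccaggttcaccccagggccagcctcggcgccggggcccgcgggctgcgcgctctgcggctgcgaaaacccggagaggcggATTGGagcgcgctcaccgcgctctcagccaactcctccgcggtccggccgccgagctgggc
MED13L, chr12:116277720-116277943, minus strand: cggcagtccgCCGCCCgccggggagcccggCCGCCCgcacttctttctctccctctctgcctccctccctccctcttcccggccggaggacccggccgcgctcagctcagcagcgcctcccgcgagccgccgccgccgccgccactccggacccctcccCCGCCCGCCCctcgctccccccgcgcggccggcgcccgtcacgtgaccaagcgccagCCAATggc
CDK8, chr13:26253879-26254103, plus strand: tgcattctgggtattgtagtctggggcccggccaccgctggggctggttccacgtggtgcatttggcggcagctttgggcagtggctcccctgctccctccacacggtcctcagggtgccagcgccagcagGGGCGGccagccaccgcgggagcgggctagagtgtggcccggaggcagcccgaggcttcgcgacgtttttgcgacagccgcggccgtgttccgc
MED31, chr17:6651635-6651717, minus strand: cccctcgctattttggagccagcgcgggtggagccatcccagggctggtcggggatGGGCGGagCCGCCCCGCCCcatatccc

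The MED13L stretch holds 4 GC boxes, 2 of them overlapping, and a CCAAT box, and MED12L holds a CCAAT box. CDK8 holds 1 GC box and MED31 holds 3, 2 of them overlapping. The 250 bases before the MED31 start also hold an ETS site, which is not in the 83 bases shown. The 25 members have 30 promoter entries, of which the first listed for each gene was counted. In its 250 bases before the start, a GC box was present in 15 of the 25 members (MED7 is not among them, although its other entry holds one) and in 67.5% of the 11008 promoters of tested genes (42.6% of all 35116 listed promoters), a CCAAT box in 10 of 25 and 35.8% of tested genes (32.0% of all), and an ETS site in 5 of 25 and 15.9% (8.52% of all). The SOX core was matched in 3 of the 25 (CCNC, MED19 and MED24) and in 4.84% of tested genes (9.29% of all). The TATA box was matched in MED7 and MED16, the E2F-type site in CDK19, MED27 and MED9, and the YY1 site in MED18 and MED25. Among tested genes these were present in 5.37%, 8.87% and 1.82%, and among all promoters in 10.7%, 5.52% and 1.36%. GC content over the same window ran from 43.6% (MED19) to 81.2% (MED13L) among members, with a median of 58.0% against 65.2% for tested genes. Such matches describe the letters only.

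In the kinase module, 4 of 7 genes fell and the other 3 were not called, where 19.3% of all tested genes fell. Among tested genes over 6000 bases in transcript length, the class of MED13, MED13L and MED12L, 53.8% fell. MED13 (ENSG00000108510; chromosome 17, 61942605 to 62065282 in GRCh38), the subunit that links the module to the core, had 178, 219 and 169 CPM in the PBS libraries and 124, 124 and 121 CPM in the cisplatin libraries. The cisplatin values lay close together and below every PBS value, and the log2 fold change was -0.62 ± 0.09 (SE; edgeR adjusted p = 3.9e-04). Its paralog MED13L (ENSG00000123066; chromosome 12, 115953872 to 116277719) had 70.9, 81.6 and 79.3 CPM under PBS and 47.7, 44.4 and 42.3 CPM under cisplatin. The groups were again apart, at -0.79 ± 0.09 in log2 fold change (edgeR adjusted p = 4.5e-05) and with a 95% interval of the fold change from 0.508 to 0.657. This was the smallest adjusted p among the members.

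MED12L (ENSG00000144893; chromosome 3, 151085697 to 151437072), the less abundant paralog of MED12, had 13.5, 18.9 and 17.6 CPM under PBS and 11.1, 8.46 and 9.55 CPM under cisplatin. Every cisplatin library was below every PBS library, a log2 difference of -0.80 ± 0.15 (edgeR adjusted p = 0.00145). Of its annotated exonic bases, 28.8% are shared with IGSF10 on the opposite strand, and reads of both genes cannot be told apart without strand. IGSF10 had 19 to 39 counts per library against 95 to 288 for MED12L, and its own log2 fold change was 0.62 (edgeR adjusted p = 0.0777). MED12, which activates the kinase together with cyclin C, had 68.0, 56.5 and 81.3 CPM under PBS and 63.4, 60.0 and 55.9 CPM under cisplatin. These ranges overlap and MED12 was not called (log2 fold change -0.20 ± 0.12, edgeR adjusted p = 0.194), but without PBS replicate 2 it was (-0.32, edgeR adjusted p = 0.0235; over the other alternatives the adjusted p reached 0.727).

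CDK8 (ENSG00000132964; chromosome 13, 26254104 to 26405238), the catalytic subunit, had 80.7, 90.6 and 90.8 CPM under PBS and 79.5, 74.0 and 69.4 CPM under cisplatin. The gap between the lowest PBS and the highest cisplatin library was narrow, and the log2 fold change was -0.24 ± 0.08 (edgeR adjusted p = 0.0372). Leaving out PBS replicate 2 or 3 ended the edgeR call (adjusted p = 0.0887 and 0.0952), as did leaving out cisplatin replicate 2 or 3 (0.105 and 0.153). DESeq2 did not call CDK8 (adjusted p = 0.05003), nor did edgeR with total count scaling (0.0649) or upper quartile scaling (0.0539). It was called in 7 of the 17 alternatives, with an adjusted p of 0.0229 to 0.392 across them. The alternative kinase CDK19 had 11.1 to 13.4 CPM under PBS and 12.7 to 14.2 CPM under cisplatin, and CCNC, the cyclin both kinases need, had 83.1 to 105 and 96.5 to 111 CPM. Neither was called (log2 fold changes 0.15 and 0.12, edgeR adjusted p = 0.346 and 0.329).

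**Figure D2:**
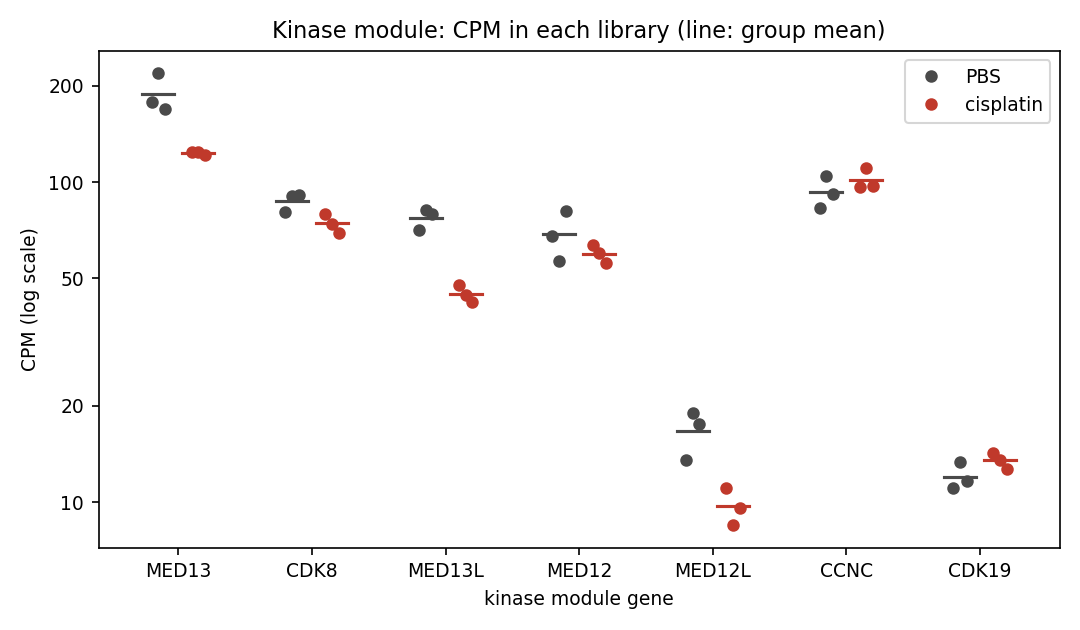
CPM (log scale, y axis) of the 7 kinase module genes in each of 3 PBS (grey) and 3 cisplatin (red) libraries, with a line at each group mean. MED13, MED13L and MED12L show a clear gap between groups, CDK8 a narrow one, and MED12, CCNC and CDK19 overlap.

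The 3 pairs of alternative subunits were also compared as log2 ratios of CPM within each library. CDK8 over CDK19 was 2.87, 2.76 and 2.96 under PBS and 2.48, 2.45 and 2.45 under cisplatin. All cisplatin ratios were lower, and the difference in the mean was -0.40. MED12 over MED12L was 2.33, 1.58 and 2.21 under PBS and 2.52, 2.83 and 2.55 under cisplatin, a difference of 0.59 with every cisplatin ratio higher (0.36 without PBS replicate 2). In TPM the MED12 over MED12L difference was also 0.59, but the groups overlapped, with 3.32 in PBS replicate 1 and 3.26 in cisplatin replicate 1 (exact two-sided permutation p = 0.3, or 0.45 adjusted over the 3 pairs). MED13 over MED13L was 1.28 ± 0.173 and 1.46 ± 0.0745 (SD, n = 3), a difference of 0.18 with overlapping values (0.08 without PBS replicate 3). An exact two-sided permutation test gave p = 0.1 for the first and second pair, the smallest that 3 against 3 libraries allow, and p = 0.2 for the third (0.15, 0.15 and 0.2 after Benjamini-Hochberg adjustment over the 3 pairs), so none could pass 0.05.

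Of the 9 middle module genes, 3 rose (33.3%) and 1 fell (11.1%), against 18.9% and 19.3% of all tested genes. The median length of the module was 1626 bases, and among tested genes of 1000 to 2000 bases 26.5% were higher and 8.45% lower. MED31 (ENSG00000108590; chromosome 17, 6643315 to 6651634), a small conserved subunit, had 3.01, 3.95 and 3.14 CPM under PBS and 6.58, 5.34 and 7.03 CPM under cisplatin. All cisplatin libraries were higher, and the log2 fold change was 0.90 ± 0.19 (edgeR adjusted p = 0.00267; 95% interval of the fold change 1.41 to 2.46). It is the member with the lowest CPM, at 27 to 60 counts in each PBS library and 60 to 117 under cisplatin. It also shares 58.3% of its exonic bases with TXNDC17 on the opposite strand, which had 216 to 433 counts per library and almost the same CPM in both groups (-0.00146768 on the log2 scale, edgeR adjusted p = 0.994), so the value of MED31 is less certain than the others.

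MED7 (ENSG00000155868; chromosome 5, 157137412 to 157159019), which forms the rod of the middle with MED21, had 12.2, 13.3 and 12.1 CPM under PBS and 17.7, 17.4 and 19.1 CPM under cisplatin. The groups were well apart, and the log2 fold change was 0.53 ± 0.11 (edgeR adjusted p = 0.00263). MED9 had 26.2, 26.0 and 24.9 CPM under PBS and 31.7, 31.8 and 29.1 CPM under cisplatin, all higher than under PBS (0.26 ± 0.09, edgeR adjusted p = 0.0354). MED9 was not called in edgeR when PBS replicate 1 or 3 was left out (adjusted p = 0.0592 and 0.0991) or when cisplatin replicate 1 or 2 was (0.117 and 0.103). DESeq2 did not call it either (adjusted p = 0.0904, in a full range of 0.0259 to 0.342). MED1 (ENSG00000125686; chromosome 17, 39404285 to 39451286), the subunit that nuclear receptors contact, had 109, 109 and 108 CPM under PBS and 87.1, 85.4 and 80.9 CPM under cisplatin. Its replicates were tight and the groups apart, at -0.36 ± 0.07 in log2 fold change (edgeR adjusted p = 0.00194). MED1 was not called once the trend of counts with transcript length was removed (-0.05, edgeR adjusted p = 0.596), nor by limma on TPM, the length-scaled abundance (-0.30 on log2(TPM + 1), limma adjusted p = 0.0983).

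The other 5 middle genes were not called. MED10 had 27.5 to 34.6 CPM under PBS and 35.6 to 38.0 CPM under cisplatin, without overlap (0.23 ± 0.10, edgeR adjusted p = 0.0772), and was called without PBS replicate 1 (0.30, edgeR adjusted p = 0.0433, with up to 0.690 over the other alternatives). MED4, MED19 and MED21 had log2 fold changes of 0.11, 0.10 and 0.08, and MED26, which recruits elongation factors, had -0.25 ± 0.14 (edgeR adjusted p = 0.169).

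MED14 (ENSG00000180182; chromosome X, 40648306 to 40735858), the scaffold of the complex, had 45.3, 45.6 and 56.5 CPM under PBS and 40.7, 39.9 and 35.1 CPM under cisplatin. PBS replicate 3 was the highest of all, the groups did not overlap, and the log2 fold change was -0.36 ± 0.10 (edgeR adjusted p = 0.0178). Leaving out replicate 3 of either group ended the edgeR call (-0.24 and adjusted p = 0.0788 for PBS, -0.29 and 0.0839 for cisplatin), in a range of 0.00434 to 0.114 over the alternatives.

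Of the 7 head genes, 1 rose (14.3%, against 18.9% of all tested genes) and the other 6 were not called. MED20, which pairs with MED18 at the end of the head, had 18.8, 18.6 and 20.6 CPM under PBS and 24.2, 24.2 and 23.1 CPM under cisplatin. Each cisplatin value was above each PBS value (0.30 ± 0.10, edgeR adjusted p = 0.0273). Leaving out replicate 1 or 2 of PBS (edgeR adjusted p = 0.0680 and 0.0532) or of cisplatin (0.0864 and 0.0718) ended the call. MED20 was also not called by DESeq2 (adjusted p = 0.0740), by edgeR without the low-count filter (0.0566) or by limma on log2(TPM + 1) (0.427). It was called in 9 of the 17 alternatives, with an adjusted p of 0.0207 to 0.427 across them. MED17, the central head subunit, had 40.1, 45.3 and 40.2 CPM under PBS and 35.5, 36.8 and 37.0 CPM under cisplatin, without overlap but also without a call (-0.20 ± 0.09, edgeR adjusted p = 0.0793). MED6, MED8, MED11, MED18 and MED22 had log2 fold changes from -0.22 (MED11) to 0.19 (MED6).

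In the tail 1 of 5 genes rose (20%, against 18.9% of all tested genes) and the other 4 were not called. MED15 (ENSG00000099917; chromosome 22, 20495913 to 20587632), an activator target, had 69.7, 63.7 and 71.3 CPM under PBS and 80.5, 80.2 and 90.3 CPM under cisplatin. The groups were apart (0.30 ± 0.08, edgeR adjusted p = 0.0131), although leaving out cisplatin replicate 3 ended the call (edgeR adjusted p = 0.0667, in a range of 0.00533 to 0.475 over the alternatives). MED23, which links the complex to ELK1 and other activators, had 20.8, 22.0 and 23.6 CPM under PBS and 19.4, 20.7 and 15.9 CPM under cisplatin (-0.26 ± 0.12, edgeR adjusted p = 0.101). MED16, MED24 and MED25 had log2 fold changes of 0.06, 0.08 and 0.14 and were not called.

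Among MED27 to MED30, MED29 (ENSG00000063322; chromosome 19, 39391303 to 39400637) rose and the other 3 were not called. It had 68.0, 61.1 and 72.7 CPM under PBS and 83.1, 85.1 and 85.1 CPM under cisplatin, with tight cisplatin values above every PBS library (0.33 ± 0.08, edgeR adjusted p = 0.00758), although limma on log2(TPM + 1) did not call it (0.20, limma adjusted p = 0.308). MED27 had 30.3 to 37.0 CPM under PBS and 37.5 to 42.2 CPM under cisplatin (0.22, edgeR adjusted p = 0.0906). MED28 and MED30 had log2 fold changes of 0.01 and 0.03. The 1 of these 4 genes that rose is 25%, against 18.9% of all tested genes. With these 4 genes placed in the head or in the tail, the number that rose there became 2 of 11 (18.2%) or 2 of 9 (22.2%).

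Over all 33 genes, 10 had every cisplatin library above every PBS library in CPM and 8 had every one below. These 18 genes are 54.5% of the members, and the same arrangement was found in 49.7% of all tested genes. Pseudogenes named after a member took little of the reads: of 21 such genes in the tables none passed the low-count filter, and the most any of them held was 9 counts over the 6 libraries (MED28P1).

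Levels between genes were compared in TPM (a relative abundance scaled by transcript length, with the same total in every library). Under PBS the most abundant member was CCNC at 63.5 ± 10.5 TPM (SD, n = 3), followed by MED24 at 63.3 ± 11.3, MED8 at 61.2 ± 4.85, MED10 at 45.2 ± 2.19 and CDK8 at 44.1 ± 4.42 TPM. The first 3 did not differ beyond their spread, nor did MED10 and CDK8. At the low end stood MED26 at 6.31 ± 1.85, CDK19 at 3.43 ± 0.221 and MED12L at 2.09 ± 0.249 TPM. CDK8 transcripts thus outnumbered those of CDK19 in each library, and likewise MED12 those of MED12L and MED13 those of MED13L. Under cisplatin MED13 stood at 17.3 ± 0.288 TPM, against 29.7 ± 3.17 TPM under PBS.

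Summed over members, Mediator transcripts came to 777, 759 and 893 TPM under PBS and 815, 788 and 766 TPM under cisplatin. The ranges overlap, and PBS replicate 3 was highest. As a share of that sum, the kinase module held 19.9%, 23.0% and 21.9% under PBS and 19.7%, 19.4% and 18.4% under cisplatin, each cisplatin value below each PBS value by a narrow margin. The middle went the other way, from 22.7%, 23.2% and 22.1% to 24.2%, 24.5% and 24.8%. MED27 to MED30 held 12.8% ± 0.244 and 14.1% ± 0.0934 (SD, n = 3), without overlap, while the shares of head (21.3% ± 1.10 and 20.5% ± 0.610) and tail (19.8% ± 1.39 and 20.5% ± 0.681) overlapped between groups. As plain TPM sums the groups overlapped in all 3 cases. The kinase module had 155, 175 and 196 TPM under PBS and 161, 153 and 141 under cisplatin. The middle had 176, 176 and 197 against 197, 193 and 190, and MED27 to MED30 had 102, 96.1 and 113 against 116, 110 and 108. The order of the shares within a library is not independent, since they add up to the whole.

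**Figure D3:**
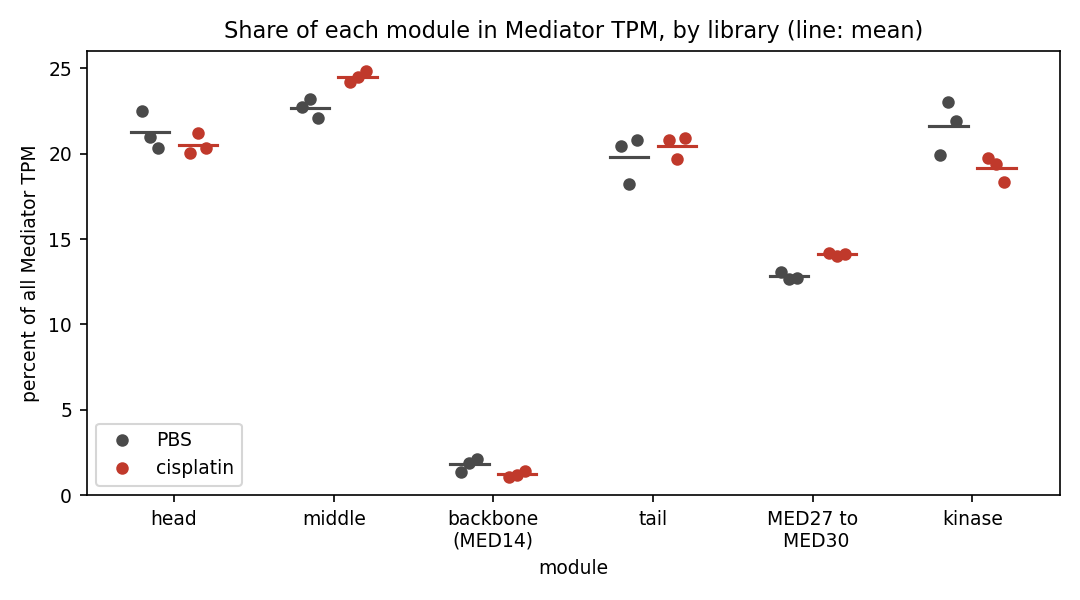
Percent of all Mediator TPM held by each module (y axis) in each of 3 PBS (grey) and 3 cisplatin (red) libraries, with a line at the mean. The kinase module is lower under cisplatin (18.4% to 19.7%, against 19.9% to 23.0%), the middle and MED27 to MED30 are higher, and head and tail overlap.

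Transcript length moved with these changes. Over all tested genes the median log2 fold change went from 0.24 for genes under 1000 bases to -0.34 for those over 6000 bases. Among the 930 tested genes over 6000 bases, 53.8% fell and 4.19% rose. The 4 members of that length, MED1 (7177 bases), MED12L (8168), MED13 (7422) and MED13L (6850), all fell. MED1, at -0.36, lay next to the median of its length class, while MED13, MED13L and MED12L were further below it. The 6 members that rose were 863 (MED31) to 3529 bases (MED29) long. Across the 33 members the log2 fold change and the log2 length had a Pearson r of -0.67 and a Spearman rho of -0.57, and across all tested genes -0.27 and -0.35; genes are not independent replicates, and they share the same 6 libraries.

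**Figure D4:**
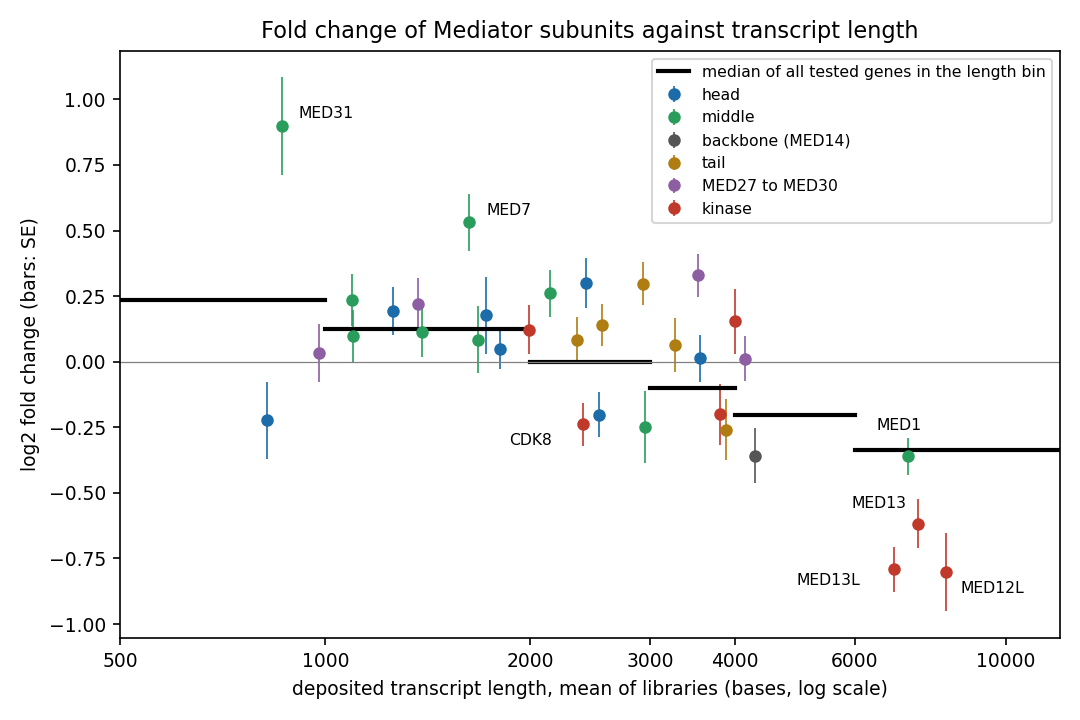
Log2 fold change (y axis, bars of 1 standard error) of the 33 Mediator genes against mean deposited transcript length over the 6 libraries (x axis in bases, log scale), coloured by module; black lines give the median of all tested genes in each of 6 length classes. MED1 lies on the line of the longest class at -0.34, MED13, MED13L and MED12L lie below it, and MED31 and MED7 lie above the lines of theirs.

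When the trend of counts with length was removed in each library, 5 members rose and 5 fell in edgeR (of all tested genes 17.1% and 16.9%, or 34% in either direction). MED13L fell by 0.49 (edgeR adjusted p = 4.98e-04), MED13 by 0.30 (0.0176), MED12L by 0.45 (0.0251) and CDK8 by 0.26 (0.0229), so the 4 kinase module calls were still made, with smaller values for MED13L, MED13 and MED12L than without the correction. MED1 (-0.05, edgeR adjusted p = 0.596) and MED14 (-0.20, 0.114) were no longer called, nor was MED9 (0.21, 0.0722). MED31 (0.66), MED7 (0.41), MED29 (0.42), MED15 (0.34) and MED20 (0.29) were called higher. MED11, at 822 bases one of the shortest members, was called lower (-0.47, edgeR adjusted p = 0.0161, with up to 0.607 over the other alternatives). What part length has in the changes of these genes was not tested beyond this.

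On log2(TPM + 1), limma called 2 members higher (MED31 and MED7) and 2 lower (MED13 and MED13L), against 8.02% and 11% of all tested genes (19% in either direction). MED12L was not called on this scale (-0.28, limma adjusted p = 0.403), nor was MED12, whose difference had the opposite sign (0.10, limma adjusted p = 0.727) to its CPM. TPM divides by the deposited length, which is an abundance-weighted mean over a gene's transcripts and varies by library. For MED12 it was 4074, 4096 and 4565 bases under PBS and 2912, 3936 and 3247 bases under cisplatin, 20.7% shorter on average (-880 bases) with no overlap. For CDK8 it was 2485, 2402 and 2632 bases under PBS and 2270, 2175 and 2371 bases under cisplatin, also without overlap. For MED13 the weighted length went the other way, from 7173, 7068 and 7413 bases to 7659, 7746 and 7470 bases.

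In all, the deposited length was longer in every cisplatin library for 3 members (MED6, MED13 and MED25) and shorter in every one for 4 (MED12, MED28, MED30 and CDK8). Such a split was found in 15.8% of all tested genes, 6.86% longer and 8.89% shorter. The exact two-sided permutation p was 0.1 for each of the 7, the smallest possible with 3 against 3 libraries. MED28 was 14.6% shorter, and MED30 by 0.95%. The length of MED12L varied more between replicates, from 4645 to 9813 bases under cisplatin and 7742 to 10063 bases under PBS. These lengths are estimates by the quantifier of which transcripts were present, and the transcripts themselves were not analysed here.

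The genes that work with Mediator at promoters were counted by the same test, beside 18.9% higher, 19.3% lower and 38.2% called in either direction among all tested genes. Of 12 subunits of RNA polymerase II, 5 rose and the other 7 were not called, with a median of 0.12. POLR2G rose by 0.42, POLR2J by 0.40 and POLR2H by 0.28, and the largest subunit POLR2A had -0.21 ± 0.10 (edgeR adjusted p = 0.114). The 5 calls, all higher, are 41.7% of the list, against 18.9% higher and 38.2% called in either direction among all tested genes. Among tested genes under 1000 bases, 33.1% were higher. After the length correction 0 of the 12 were called higher in edgeR (1 at an unadjusted p under 0.05) and POLR2I was called lower, on log2(TPM + 1) limma called 1 higher, and leaving out PBS replicate 3, or replicate 2 or 3 of cisplatin, left 2, 3 and 2 called higher in edgeR.

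Of 18 general transcription factor genes, 6 rose and 1 fell, with a median of 0.02. CDK7, the kinase of TFIIH, rose by 0.45, GTF2B, the factor TFIIB, by 0.44 and the small TFIIH subunit GTF2H5 by 0.60, while GTF2A1 of TFIIA fell by 0.49. The share called, 38.9%, is next to the background in either direction, with 33.3% of the list higher and 5.56% lower. Among tested genes of 1000 to 2000 bases, the class of the list's median length, 26.5% were higher and 8.45% lower. After the length correction CDK7 alone was called higher and GTF2E2, GTF2H2 and CCNH were called lower, while limma on log2(TPM + 1) called 0 higher (2 at an unadjusted p under 0.05). Leaving out PBS replicate 3, or replicate 2 or 3 of cisplatin, left 3 higher each time, and without cisplatin replicate 1 the number lower was 0 (1 at an unadjusted p under 0.05).

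Of 15 TAF subunits of TFIID, 1 rose and 4 fell, with a median of -0.06 and 33.3% called. By direction 6.67% were higher and 26.7% lower, against 18.5% and 16.9% of tested genes of 2000 to 3000 bases. The largest subunit TAF1 fell by 0.52, TAF2 by 0.54 and TAF9B by 0.39, and TAF11 rose by 0.32. These 4 genes were called in the same direction after the length correction. TAF3 was also called higher there, and the number lower was 3. Without cisplatin replicate 3 the number lower was 2.

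Of 20 genes of pause release and elongation, 2 rose and 6 fell, with a median of -0.10 and 40% called. By direction 10% were higher and 30% lower, against 12% and 24.2% of tested genes of 3000 to 4000 bases. AFF4, the scaffold of the super elongation complex, fell by 0.34, cyclin T1 (CCNT1) by 0.26 and EAF1 by 0.35, and SUPT4H1, the small subunit of DSIF, and MLLT3 rose by 0.33 and 0.32. None of these 5 was called after the length correction, in which 1 gene of the list was higher (SUPT6H) and 1 lower (NELFA). Without cisplatin replicate 1 the number lower was 0 (5 at an unadjusted p under 0.05), and without cisplatin replicate 2 it was 3. The number higher was 1 when replicate 1 or 3 of PBS or replicate 2 or 3 of cisplatin was left out. The median length was 942 bases for the polymerase subunits, 1705 for the general factors, 2475 for the TAF subunits and 3690 for the elongation genes.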

How the data were processed

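Total RNA was extracted with TRIzol and made into libraries with an ABclonal kit, per the labels' protocols. The authors deposited, per library, expected counts (not normalized), TPM and transcript lengths in an RSEM-style table, per the file headers; the FPKM values deposited beside them were not used. Alignment used STAR 2.7.9 and GRCh38 (hg38), per the submitters' processing notes. For the quantifier's version, the annotation release and the use of strand, the value is not given in the sources used here.

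A reference table gave symbols for 61399 of 61552 identifiers; positions and exons were taken from GENCODE 29 (same build) and promoters from RefSeq (GRCh38.p14). Expected counts were rounded, and edgeR 4.0.16 (R 4.3.3) was run with filterByExpr (count minimum 10, total 15), TMM, the quasi-likelihood test on group alone, and Benjamini-Hochberg adjustment over 15063 genes, called under 0.05. CPM use TMM-adjusted library sizes, and standard errors are the log2 fold change over the square root of F. Library totals of 9121180 to 16724285 counts set the precision. The length correction subtracted a lowess trend (span 0.3) of each library's log2 CPM deviation on log2 length. The edgeR, limma-voom, DESeq2 and length-corrected fits were also run on simulated counts, with outcomes not given here. The limma fits on TPM were not.

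Alternatives were scaling by RLE, by upper quartile or by total count, no filter or 50 counts in 3 samples, a replicate block, each library left out, DESeq2 1.42.0, limma-voom (limma 3.58.1), limma on log2(TPM + 1) or (TPM + 0.1), and the length correction; for the lists of other promoter genes these were added after seeing the data. The members and lists were chosen with earlier results of these data known. The genes named are all members, the markers, and from each list the up to 3 called genes per direction with the lowest adjusted p (with POLR2A, IGSF10, TXNDC17 and list genes called only after the length correction added after their values were seen).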

Additional observations from a re-analysis of the deposited data

How the results depend on the processing

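Under the alternatives for scaling, low-count filter, replicate block and tool on counts, 4 to 6 members were called higher and 5 or 6 lower, and 3 or 4 of the kinase module genes were called lower. When 1 library was left out, 4 to 5 members were higher and 4 to 6 lower, and 3 to 4 kinase module genes were lower. Among all tested genes, the alternatives on all 6 libraries' counts called 10.4% to 20.8% higher and 10.4% to 21.2% lower. With 1 library left out these shares were 13.6% to 18% and 13.1% to 17%. On log2(TPM + 1) they were 8.02% and 11%, and on log2(TPM + 0.1) 7.87% and 10.8%. MED13, MED13L, MED31 and MED7 were called in all 17 alternatives, and MED12L and MED29 in 15, all but the fits on TPM. MED1 and MED15 were called in 14, MED14 in 12, MED20 in 9, MED9 in 8 and CDK8 in 7. On log2(TPM + 1) and on log2(TPM + 0.1), 2 members were higher and 2 lower, 2 of them in the kinase module lower and 2 outside it higher; the cause was not tested. The median log2 fold change of the members, 0.08, was 0.03 (0.0304191) after the length correction, -0.01 (-0.0141478) on log2(TPM + 1) and -0.01 (-0.0144139) on log2(TPM + 0.1). Without a library, the CDK8 over CDK19 difference ran from -0.45 to -0.35, MED12 over MED12L from 0.36 to 0.74 and MED13 over MED13L from 0.08 to 0.25; in TPM they were -0.36, 0.59 (with overlapping groups) and 0.06. With the replicate number as a block, 6 members were higher and 6 lower, as without it. The deviations of same-numbered libraries correlated at 0.07, 0.12 and -0.08, and those of differently numbered libraries at -0.19 to 0.13. From 3 libraries per group these values cannot show whether the numbers pair the samples. Depth limits MED31 most, at 27 to 117 counts per library. For the 4 lists of other promoter genes, the same alternatives were added after seeing the data. Under those for scaling, filter, replicate block and tool on counts, 5 polymerase genes and 5 to 6 general factors were higher. There 4 to 5 TAF genes and 5 to 6 elongation genes were lower. All tested genes stood at 10.4% to 20.8% higher and 10.4% to 21.2% lower. On log2(TPM + 1) the 4 list counts were 1, 0, 1 and 1 (all tested genes 8.02% higher and 11% lower). After the length correction they were 0, 1, 3 and 1 (17.1% and 16.9%). With 1 library left out they ran from 2 to 4, 3 to 6, 2 to 5 and 0 to 6 (13.6% to 18% and 13.1% to 17%).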
